A study of Mus musculus with 6 samples.

Results

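Promoters of long noncoding RNAs (lncRNAs) that lie away from protein-coding genes were examined in the open chromatin of astrocyte nuclei from mouse primary visual cortex (V1). The members were the 8024 lncRNA genes of the GENCODE vM21 annotation (classes lincRNA, antisense, processed transcript and sense intronic) whose annotated 5′ end lay more than 2 kb from the transcription start site (TSS) of every protein-coding transcript. They were 8024 of 9930 lncRNA genes of these 4 classes and of 55413 annotated genes on chromosomes 1 to 19, X and Y. Each member was represented by a window reaching 500 bp to each side of its 5′ end, and a window was called open in a library when a peak of that library overlapped it. The closest member lay 2001 bp from a coding TSS, the furthest lncRNA left out lay 1987 bp away, and the median distance among members was 52044.5 bp. The rule used only the annotation and no measured value. It took gene classes as annotated, so members include records that carry the names of protein-coding genes, such as Tctn2 and Ptpmt1.

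All 6 libraries came from GRfl/fl mice, in which both copies of the glucocorticoid receptor gene Nr3c1 carry loxP sites, at postnatal day 21 (P21). Between P0 and P1 all pups received an AAV2/5 virus whose GfaABC1D promoter, active in astrocytes, drove EGFP-KASH, a GFP held at the nuclear envelope, from a construct that also carried the 4x6T element. In the 3 GR-KO libraries the same transcript encoded active Cre recombinase. In the 3 GR-con libraries it encoded ΔCre, which does not recombine. Each library was made from V1 of 3 to 4 pooled animals, and nuclei positive for both the DNA dye DRAQ5 and GFP were sorted before ATAC-seq, an assay in which a transposase cuts accessible DNA. Only nuclei that took up the virus were sampled, and accessibility in more nuclei cannot be told apart from greater accessibility in each nucleus.

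lncRNAs are transcribed from promoters built like those of mRNAs, but they are often expressed in few cell types. Many coding promoters lie in CpG islands, stretches rich in unmethylated CpG that stay open in most tissues, whereas intergenic lncRNA promoters more often lack them. An lncRNA that starts close to a coding gene can share that gene's open promoter, which is why windows near coding TSSs were kept apart here. The glucocorticoid receptor is a hormone-activated transcription factor that binds a palindromic DNA element, and Fkbp5 and Klf9 are among its long-known target genes.

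The sequences below show what open lncRNA promoters away from coding genes look like. They were read from GRCm38.p6 (mm10) on the strand of the gene, 100 bp to each side of the strongest GR-con 1 summit. CpG dinucleotides are in capitals. The first belongs to 2900097C17Rik, the mouse Norad gene, at chr2:156392888-156393088 on the minus strand, and holds 18 CpGs in 201 bases with a GC content of 70.6%. The second belongs to the lincRNA 4930553P18Rik at chr6:86004340-86004540 on the plus strand, with 9 CpGs in 201 bases and a GC content of 56.7%. By fold enrichment, the height of a peak over the local background of its library, both were among the most accessible members in every library.
2900097C17Rik: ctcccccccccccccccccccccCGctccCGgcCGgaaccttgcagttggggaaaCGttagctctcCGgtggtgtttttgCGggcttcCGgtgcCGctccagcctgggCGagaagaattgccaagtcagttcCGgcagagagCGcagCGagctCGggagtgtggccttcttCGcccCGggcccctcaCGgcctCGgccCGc
4930553P18Rik: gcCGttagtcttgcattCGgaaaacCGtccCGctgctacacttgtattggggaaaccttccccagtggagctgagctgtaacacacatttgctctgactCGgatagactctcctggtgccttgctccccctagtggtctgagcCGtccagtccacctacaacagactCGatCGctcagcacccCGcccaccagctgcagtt

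About 1 in 5 members was open in these nuclei, and GR-con and GR-KO differed little in that share. A peak overlapped 20.1%, 20.0% and 20.4% of the 8024 windows in GR-con 1 to 3, and 19.9%, 19.3% and 19.6% in GR-KO 1 to 3. The GR-KO minus GR-con difference was -0.532 percentage points, with no overlap between the groups (exact permutation test, two-sided, p = 0.1, the smallest that 3 against 3 libraries can give). Protein-coding windows moved the same way, by -0.307 points (exact permutation p = 0.1). The lncRNA windows within 2 kb of a coding TSS moved further, by -0.769 points (exact permutation p = 0.1). With all lists shortened to equal length the difference for members was -0.216 points (exact permutation p = 0.5). The lists held 184618 to 198929 peaks in GR-con and 179462 to 184056 in GR-KO.

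The same windows were open from library to library. Of the 8024 members, 6046 had no peak in any library, 1304 had a peak in all 6, and 674 had one in 1 to 5 libraries. Any pair of libraries shared 83.2% to 84.2% of their open members within a group (6 pairs) and 81.9% to 83.4% between groups (9 pairs). Windows that were open in some libraries only were weak. The median fold enrichment, the height of a peak over the local background of its own library, was 2.81 for members open in 1 library, 3.46 for those open in 5, and 9.91 for those open in all 6.

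Members were open far less often than promoters of coding genes. The share was 60.5% to 61.1% across libraries for 21938 protein-coding windows, and the difference of members from it was -40.9 points (SD 0.173 over 6 libraries; exact paired permutation test, two-sided, p = 0.031, the smallest 6 pairs can give). The 1906 lncRNA windows within 2 kb of a coding TSS were open in 68.6% to 69.9%, and members differed from them by -49.2 points (SD 0.302, exact paired permutation p = 0.031). All 9 differences between classes of windows given here were tested this way, and each had an adjusted p of 0.031 (exact paired permutation test, Benjamini-Hochberg over the 9). The p and SD of these differences measure only how well they repeat over 6 libraries that share most open windows. They do not measure the spread over the windows of a class.

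Openness went with CpG content. A window was called CpG-rich when its observed over expected CpG ratio was at least 0.6 and its GC content at least 50%. Only 229 members (2.85%) met this, against 9738 coding windows (44.4%). Of the CpG-rich members 74.7% ± 0.873 were open in GR-con and 74.5% ± 0.504 in GR-KO (SD, n = 3 each). Of the CpG-poor members 18.5% ± 0.246 were open in GR-con and 18% ± 0.314 in GR-KO. The difference between CpG-rich and CpG-poor members was 56.3 points (SD 0.828, exact paired permutation p = 0.031). Members were also below coding windows of the same kind, with a difference of -21.1 points in CpG-rich windows (SD 0.664) and -14.7 points in CpG-poor ones (SD 0.131).

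The 4 annotation classes differed too. Processed transcripts (456 members) were open most often, at 31.8% to 33.3%, which was 14.4 points above lincRNAs (SD 0.577, exact paired permutation p = 0.031). Antisense genes (1873) were open at 21.2% to 22.3% and lincRNAs (5401) at 17.9% to 19.2%, a difference of 3.41 points (SD 0.587). Sense intronic genes (294) were the lowest at 12.9% to 14.6%, with a difference of -4.65 points from lincRNAs (SD 0.806). The shares of windows in an exon of a coding gene (397 windows, 23.4% to 24.9%), in an intron (1740, 19.3% to 20.2%) and between genes (5887, 19% to 20.2%) lay closer together.

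**Figure D1:**
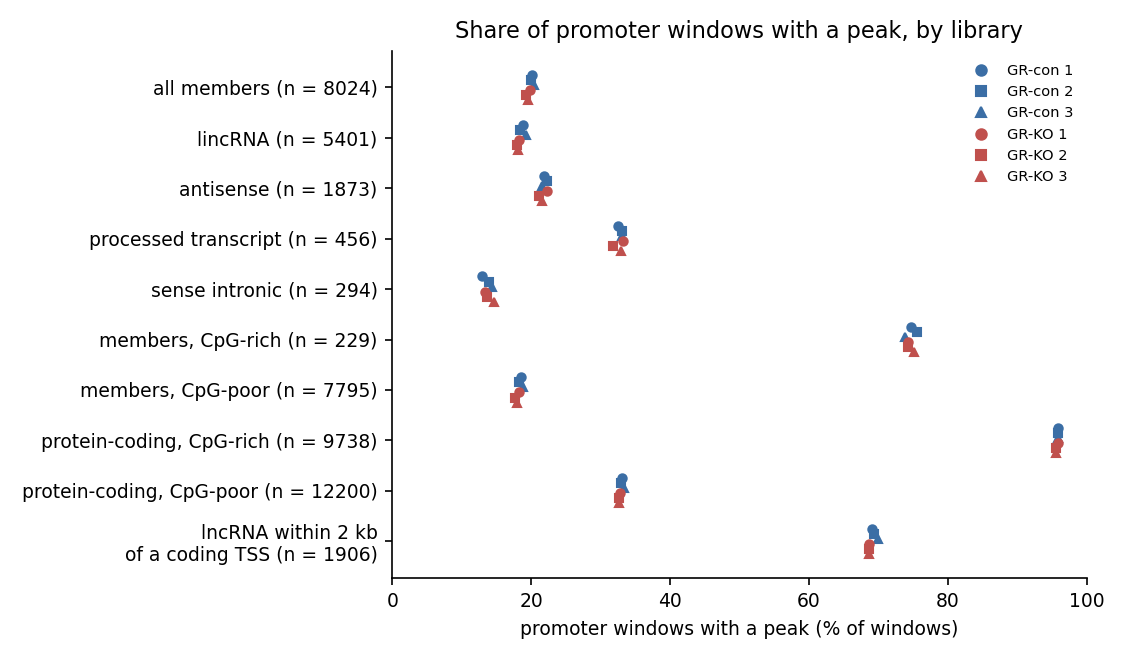
Percentage of promoter windows with a peak (x axis) by class of window (y axis, number of windows in brackets); each point is 1 library, blue for GR-con and red for GR-KO. Within a class the 6 libraries sit within a few points of each other, while CpG-rich members at 73.8% to 75.5% stand far to the right of CpG-poor members at 17.7% to 18.8%.

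Distance and repeats also went with openness. Members more than 100 kb from a coding TSS (2698) were open in 13.8% to 14.8% of windows, against 21.9% to 23.8% of the 576 members at 2 to 5 kb, a difference of -8.57 points (SD 0.499, exact paired permutation p = 0.031). Between those limits the share stayed at 21.1% to 25.8%. Windows with up to 25% of their bases in repeats soft-masked in the reference (5135) were open in 25.3% to 26.5%, and windows with over 75% (805) in 0.497% to 0.621%. The study's processing had multimapping reads switched off, and the part of this in the low share of repeat windows was not tested.

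Open members had weaker peaks, less tightly placed, than open coding promoters. The strongest peak with its summit in the window had a median fold of 6.85 to 7.56 across libraries in members and 15.3 to 16.7 in coding windows. Among members the medians ran from 4.66 to 5.66 in sense intronic genes and 5.42 to 5.97 in antisense genes to 6.95 to 7.94 in lincRNAs and 9.42 to 10.8 in processed transcripts. CpG-rich members reached 12.8 to 13.6, against 16.5 to 18 in CpG-rich coding windows. Of the summits in member windows, 48.6% to 50.7% lay within 100 bp of the annotated 5′ end, against 75.6% to 76.4% in coding windows. Summits lay upstream in 62.9% to 63.3% of members with one, near the 64.9% to 66.3% of coding windows, with 76.5% to 80.5% in CpG-rich members and 43.2% to 50% in sense intronic ones.

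**Figure D2:**
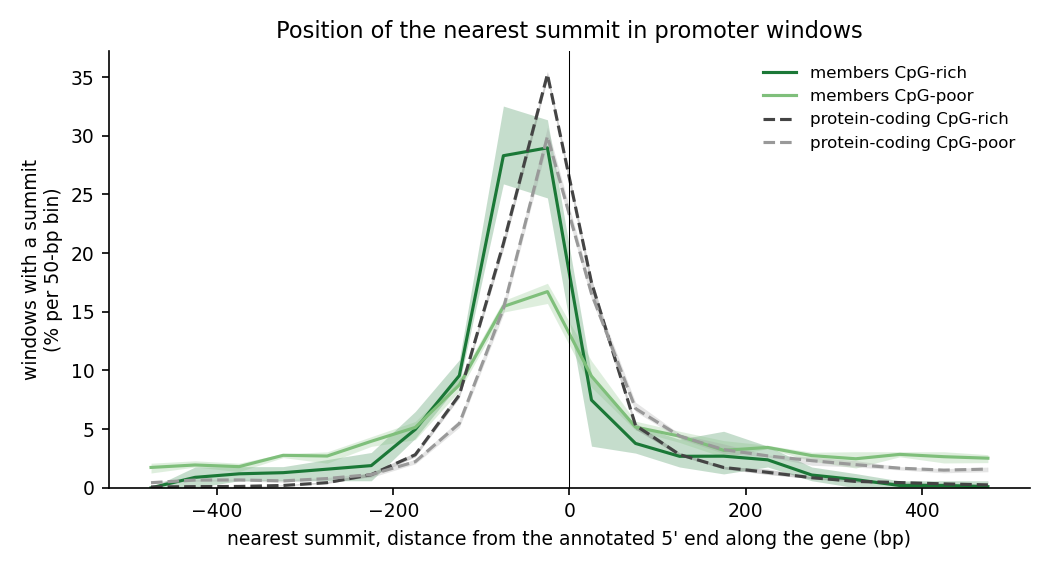
Position of the nearest summit along the gene (x axis, bp from the annotated 5′ end, negative upstream) as a percentage of windows with a summit per 50-bp bin (y axis); lines are means over 6 libraries and bands run from the lowest to the highest library. CpG-rich members peak upstream of the 5′ end, with 28.3% from -100 to -50 bp and 28.97% from -50 to 0 bp. CpG-rich coding windows have 20.81% and 35.24% there, so they peak closer to the 5′ end. CpG-poor members have a lower and wider peak.

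The most accessible members were mostly uncharacterised lincRNAs, with a conserved cytoplasmic lncRNA among them. By mean percentile of fold over the 6 libraries, the 10 highest were 4930553P18Rik, 1810044D09Rik (29624 bp from Wnt7a), 2900097C17Rik, 5830454E08Rik (5887 bp from the ribosomal protein gene Rpl14), D130017N08Rik, 9330159M07Rik, Gm26611, 4930546K05Rik, AC026385.1 and A530083I20Rik. The folds of 4930553P18Rik were 33.8, 35.9 and 32.7 for GR-con, and 30, 31.4 and 34.5 for GR-KO, with overlapping groups. 9330159M07Rik and Gm26611 start on opposite strands of the same open site and share their peak. For 4930546K05Rik and AC026385.1 the strong peak only reached into the window. Summits inside it had folds of 3.29 to 4.02 in 4 libraries for the former and 2.85 in 1 library for the latter.

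Of the 9 lncRNAs that met the rule on a list of well known and mostly nuclear species, 6 were open in all 6 libraries. 2900097C17Rik (Norad), which binds Pumilio proteins, had folds of 33.0, 32.5 and 29.6 in GR-con and 30.2, 28.6 and 31.3 in GR-KO. Pvt1, next to Myc, had 13.2, 14.8 and 12.8 in GR-con and 12.6, 13 and 13.7 in GR-KO. Miat had 8.28, 10.0 and 9.78 in GR-con and 11.9, 9.85 and 11.3 in GR-KO, with overlapping groups. Dleu2, host of the microRNAs 15a and 16-1, lay between 7.65 and 8.82. Neat1, the scaffold of paraspeckles, lay between 4.71 and 6.04, and Malat1, found in nuclear speckles, between 3.84 and 4.4. Rmst had a peak in 1 library only, and Meg3 and Sox2ot had none in the window.

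Imprinted and X-linked lncRNAs showed the same split between open and closed windows. In the imprinted list (10 members, which also held the X-linked Jpx), 5 were open in all libraries, 1 in some and 4 in none. Kcnq1ot1, which silences neighbouring genes on the paternal chromosome, had folds from 17.3 to 22.3. Nespas, antisense at the Gnas locus, had folds from 16.1 to 21.1, Peg13 from 13.1 to 14.9 and Airn, the silencer of Igf2r, from 7.12 to 9.95. H19 had a weak peak of 2.03 to 3.11 in 5 libraries, and the windows of Meg3, Rian, Mirg and Snhg14 were closed. Of 6 X-linked members, Firre (22.1 to 27.3), 4933407K13Rik of the Dxz4 region (14.2 to 17.5), Jpx (9.83 to 12.9) and Xist (3.75 to 7.16) were open in all libraries, and Tsix and Ftx in none. Allele and sex cannot be read from pooled peak lists.

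Most host genes of small RNAs on the lists were open. Of 10 microRNA host genes, 8 were open in all 6 libraries, with Mir22hg at 8.57 to 10.9, Mir670hg at 9.96 to 11.7 and Mir155hg at 6.50 to 9.97. Others were weak, down to Mir99ahg, whose summits in 5 libraries had folds of 1.48 to 1.76. Mir142hg, the host of a microRNA of blood cells, was closed in all, as was Mir133a-1hg, named for a muscle microRNA. Of 8 snoRNA host genes, 6 were open in all libraries, and every one of these was strong, from 18.5 to 22.7 at Snhg8 to 24.0 to 27.2 at Snhg6. The 2 other snoRNA hosts were Snhg14, closed, and Snhg20, reached by a peak in 5 libraries without a summit inside. Of the genes named as opposite-strand transcripts, 32 of 164 were open in all libraries and 112 in none, and in the list of lncRNAs beside developmental transcription factors 6 of 10 were closed in every library, among them Dlx6os1, Hotair and Six3os1. Of all members, 16.3% were open in all 6 libraries and 75.3% in none, so these last lists were no more closed than members as a whole. In the test of windows by −log10 p described below, no member of any of these 7 lists was called lower or higher in GR-KO. In the order given here, the lists held 6, 6, 4, 8, 6, 39 and 4 tested windows. Over all gene windows tested, 0.0941% were called lower and 0.0553% higher, so an absence of calls in so few windows says little about them.

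**Figure D3:**
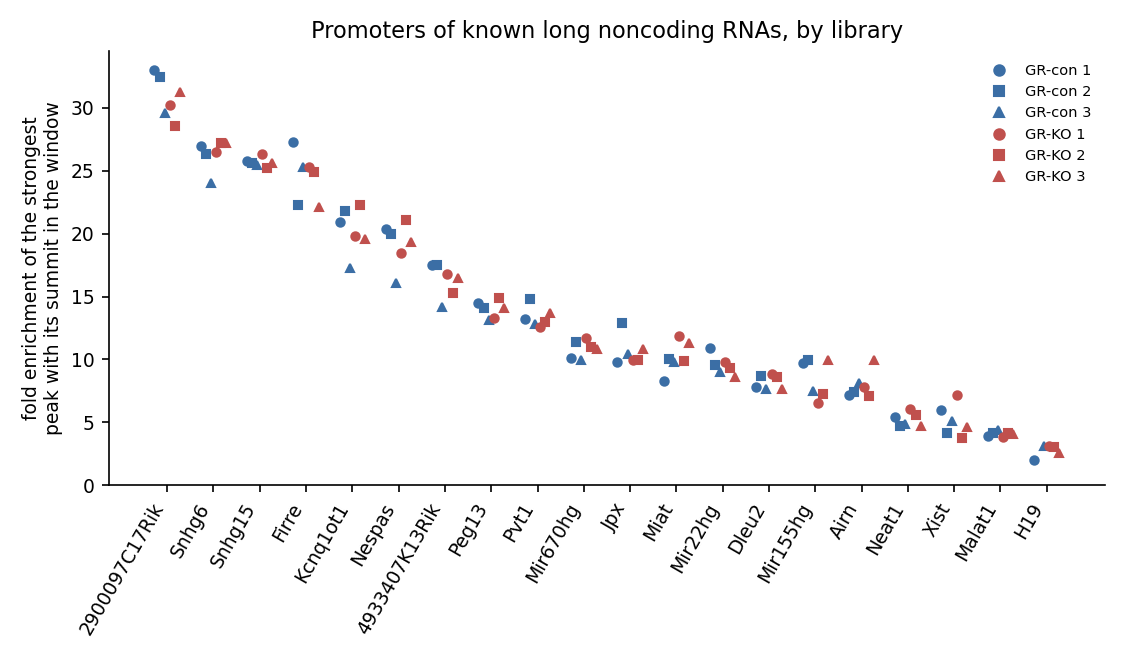
Fold enrichment (y axis) of the strongest peak with its summit in the window for 20 named lncRNAs (x axis), 1 point per library, blue for GR-con and red for GR-KO. Folds run from about 30 at 2900097C17Rik down to 2.03 to 3.11 at H19, and at these genes blue and red points lie close together; H19 has no point for GR-con 2.

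As a check of the labelled cells, 6 of 8 astrocyte markers had an open promoter window in every library, while Aldh1l1 and Aqp4 had no peak at the annotated 5′ end. The summed fold over the astrocyte list was 45.9 to 47.7 in GR-con and 46.1 to 48.7 in GR-KO. The neuronal list (6 genes) summed to 7.06 to 14.4 in GR-con and 9.88 to 14.1 in GR-KO, with 1 gene open in all 6 libraries and Gad1 and Neurod6 closed in all, and the oligodendrocyte list (5 genes) to 5.83 to 8.06 and 3.43 to 8.76, with 1 gene open in all libraries and Mag, Mog and Pdgfra closed. The microglial list (5 genes) summed to 11.2 to 16.1 in GR-con and 14.1 to 19.7 in GR-KO, with 2 genes open in all libraries and C1qa, Csf1r and Cx3cr1 closed, and the endothelial list (3 genes) to 3.21 to 4.06 in GR-con and 5.68 to 6.96 in GR-KO, with 1 gene open in all libraries and Pecam1 closed. Some promoters of genes that mark other cell types were therefore open in these nuclei. The endothelial sum was thus higher in every GR-KO library, and its part in the comparisons of GR-KO with GR-con was not tested. The strongest promoter peak of Nr3c1 had folds of 7.04, 7.02 and 6.64 in GR-con and 6.28, 6.27 and 5.91 in GR-KO. An open promoter does not measure the recombined exons, so it does not check the knockout.

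Differences at lncRNA promoters upon loss of the receptor were sought first at consensus sites, which held the 200 bp before and after a summit, by comparing the within-library rank of fold with limma. A rank was turned into a normal score, so that differences are in standard deviations of a normal distribution, and a site was called at an adjusted p under 0.05 over all sites. Of 1526 member sites, 2 were called lower and 0 higher in GR-KO; the background over all 133271 sites was 0.337% lower and 0.186% higher. At an unadjusted p under 0.05, limma had 75 of 1526 member sites lower and 81 higher, beside 7228 and 8922 of all 133271 sites, so that members were not called more often than sites at large. These counts include sites that entered through 1 group only. With 1 library left out, limma called 4 member sites lower without GR-con 1 or GR-con 2 and 0 without GR-con 3, with no share over all sites given for these fits. Only sites centred in a window were counted, and without GR-con 3 the Gm13869 site described next, still past the threshold, was centred 520 bp from the 5′ end and so just outside. The median difference was 0.0255 over member sites and 0.0299 over all sites.

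At both called sites the extent of the peak intervals differed between groups, and their height at the promoter overlapped. At Gm13869, a lincRNA 73403 bp from Ehf, the score difference was -1.96 (SE 0.147, adjusted p = 0.00611, limma). The peak credited to GR-con had its summit 1079 to 1088 bp downstream of the 5′ end, with folds of 13.9, 14.5 and 13.9, and its long interval reached the window. A peak at the same place had folds of 16, 15.2 and 15.5 in GR-KO, where it did not reach the site. The summit nearest the 5′ end had folds of 5.98, 4.86 and 5.26 in GR-con and 3.32, 4.95 and 3.38 in GR-KO, which overlap. When the peak was chosen by its summit, the site difference was 0.0606 (adjusted p = 0.96, limma). At Gm47547, in an intron of Dydc2, the difference was -1.1 (SE 0.139, adjusted p = 0.0399, limma), a call lost with any 1 library left out (adjusted p = 0.0712 to 0.105, limma). The GR-KO intervals there were 158 to 193 bp wide and so could not cover more than 200 bp of a site, while their folds were 3.43, 5.30 and 7.48 against 5.86, 5.64 and 5.07 in GR-con. The next 3 sites by p, at 4930503O07Rik, 1700052H01Rik and Gm47153, were not called. There, as at Gm47547, no GR-KO interval covered over 200 bp of the site, and each of the 3 windows had a shorter peak in at least 1 GR-KO library. These 3 sites and Gm47547 entered the test only through GR-con, the group in which they were high, so their p-values restate that selection. The same holds for Gm13869. There GR-KO 1 had no summit in the site, and the GR-KO 2 interval at it was 181 bp wide. Only GR-con could thus meet the rule of at least 2 libraries.

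For this reason the strongest peak with its summit inside the window was also compared, ranked by its −log10 p, over all 18068 gene windows with a summit in at least 2 libraries. This comparison was added after the site results were seen. Of 1586 member windows tested, 5 were called lower in GR-KO and 0 higher, beside 0.0941% lower and 0.0553% higher over all windows tested (limma, adjusted p under 0.05). At an unadjusted p under 0.05, limma had 118 of 1586 member windows lower and 101 higher, beside 833 and 947 of all 18068, and of the 118 and 101, 92 and 80 had a summit in all 6 libraries. Those 92 and 80 were 7.94% and 6.9% of such members, beside 4.41% and 5.22% of all such gene windows. The member shares were thus above the background in both directions. All 5 called windows had a summit in all 6 libraries, and they held 4 distinct peaks. Ranked by fold in place of −log10 p, none of the 5 passed, with adjusted p from 0.139 to 0.543 (limma). With 1 library left out, limma called 0 member windows lower without GR-con 1, 1 without GR-con 2, 8 without GR-con 3, and 3, 3 and 2 without GR-KO 1, 2 and 3. No share over all gene windows is given for these fits, so the counts show only that calls depended on single libraries.

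The nearest coding genes of the 4 peaks, at distances from a few kb to over 100 kb, are given as annotation only. Gm48770, an antisense gene in an intron of Lyrm4, 27600 bp from Ppp1r3g (a glycogen-targeting subunit of protein phosphatase 1), had a −log10 p of 80.0, 70.9 and 58.3 in GR-con and 14.1, 19.7 and 14.4 in GR-KO. All GR-KO values were below all GR-con values, and the score difference was -0.45 (SE 0.0585, adjusted p = 0.0157, limma). Its folds were 5.67, 5.17 and 5.00 against 2.77, 3.19 and 2.83, also without overlap. A stronger peak outside the window, with its summit at -1295 to -1276 bp from the same 5′ end, had folds of 11.0, 10.5 and 10.7 in GR-con and 10.7, 10.6 and 10.9 in GR-KO, which overlap.

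5330429C05Rik, a lincRNA 36176 bp from the netrin receptor gene Unc5a, had a −log10 p of 222, 214 and 193 in GR-con and 50.2, 112 and 67.2 in GR-KO. The score difference was -0.472 (SE 0.0664, adjusted p = 0.0189, limma), and the folds of 24.4, 24.8 and 22.1 against 11.7, 21 and 14.6 did not overlap. Gm30075, a lincRNA 136978 bp from the guidance gene Rgma, had a −log10 p of 199, 216 and 143 in GR-con and 76.6, 65.3 and 48.3 in GR-KO. Its score difference was -0.444 (SE 0.0667, adjusted p = 0.0271, limma), with folds of 17.5, 20.2 and 15.5 against 12.4, 12.3 and 9.51. In GR-con its summit lay within 10 bp of the annotated 5′ end, and in GR-KO within 34 bp.

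The lincRNAs Gm20109 and E230001N04Rik start on opposite strands of 1 open site, 5624 and 5196 bp from the TSS of Fkbp5, which encodes a co-chaperone of the glucocorticoid receptor. They shared a −log10 p of 149, 161 and 107 in GR-con and 56.4, 37.9 and 36.7 in GR-KO, with a score difference of -0.405 (SE 0.062, adjusted p = 0.029, limma). The highest folds, 9.38, 10.7 and 8.18 in GR-con against 8.79, 7.07 and 7.64 in GR-KO, overlapped between groups. The site held 2 main summits, one near each 5′ end. At the summit -51 to -37 bp from the 5′ end of Gm20109 in GR-con, folds were 9.38, 10.7 and 7.89. The nearest GR-KO summit, at -92 to -77 bp, had 6.16, 5.48 and 5.34. At the summit 446 to 462 bp downstream, near the 5′ end of E230001N04Rik, folds were 9.03, 8.43 and 8.18 in GR-con and 8.79, 7.07 and 7.64 in GR-KO. By fold, the first summit was lower in every GR-KO library than in any GR-con library, and the second overlapped between groups. By −log10 p both were lower without overlap, at 141, 161 and 92 against 30, 23.2 and 20 at the first summit, and at 149, 125 and 107 against 56.4, 37.9 and 36.7 at the second. The value tested was that of the second summit in every library but GR-con 2.

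The sequences of the 3 called peaks without a glucocorticoid receptor motif are shown first, 100 bp to each side of the strongest GR-con 1 summit and on the strand of the gene: Gm48770 at chr13:35995789-35995989 (plus), 5330429C05Rik at chr13:54912972-54913172 (plus) and Gm30075 at chr7:73238432-73238632 (minus), all in GRCm38.p6.
Gm48770: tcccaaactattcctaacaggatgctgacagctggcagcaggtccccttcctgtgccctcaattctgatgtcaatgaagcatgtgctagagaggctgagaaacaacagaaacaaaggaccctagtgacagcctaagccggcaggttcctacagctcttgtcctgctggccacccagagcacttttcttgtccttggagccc
5330429C05Rik: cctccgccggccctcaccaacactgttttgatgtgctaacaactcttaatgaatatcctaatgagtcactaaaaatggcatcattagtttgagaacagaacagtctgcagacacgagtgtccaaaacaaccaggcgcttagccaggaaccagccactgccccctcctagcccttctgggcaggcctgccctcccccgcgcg
Gm30075: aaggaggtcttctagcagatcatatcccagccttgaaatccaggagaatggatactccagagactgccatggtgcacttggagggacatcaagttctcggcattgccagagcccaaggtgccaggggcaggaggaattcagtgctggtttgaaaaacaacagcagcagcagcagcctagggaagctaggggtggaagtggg

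Windows with a glucocorticoid receptor (GR) motif, GNACANNNTGTNC on either strand, were then set apart from the rest. The motif was in 142 member windows (1.77%), near the 1.68% of all gene windows and the 1.47% of coding windows of the same length. It stood in 2.22% of members open in all 6 libraries and 1.60% of members open in none. Of these 142, 45 had a peak in some library, 35 had a summit in at least 2 libraries, and 20 had one in all 6. The 20 windows held 18 distinct peaks, and the comparison below keeps to them, since they did not enter through the group in which they were high.

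The counts at these 20 windows are a description with no test. Every GR-KO library was below every GR-con library by percentile of −log10 p at 6 of 20 windows (30%), which held 5 distinct peaks, and above at 0. Among all 1159 members with a summit in all libraries the counts were 176 below (15.2%) and 77 above (6.64%), and over all 16067 such gene windows 9.62% were below and 5.35% above. By percentile of fold, counted separately, 6 of the 20 (5 distinct peaks) were below and 0 above, beside 137 (11.8%) and 83 (7.16%) of the 1159 members and 5.73% and 9.82% of all such windows. At an unadjusted p under 0.05, limma had 5 of the 20 (4 distinct peaks) lower and 0 higher, beside 92 and 80 of the 1159 members and 4.41% and 5.22% of all such windows. The median score difference was -0.0858 over the 20, with 14 below 0 and 6 above, and -0.00071 over the other members. Without GR-con 3 the median over the 20 was -0.0441.

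Over 143 coding windows with the motif and a summit in all libraries, the median difference was 0.00202. Of these, 24 (16.8%) lay below in every GR-KO library and 3 (2.1%) above, beside 8.96% and 5.17% of coding windows without the motif. Members with the AP-1 motif (TGACTCA or TGAGTCA), which stood in 17.1% of members, had 15.8% below and 7.07% above, close to the 15.1% and 6.56% of members without it. A motif match is a description of the letters in a window and does not show binding.

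The 4 motif peaks of smallest p among these are printed here, since they carry the values that follow, with 75 bp to each side of its centre, the motif in capitals, on the strand of the gene in GRCm38.p6. Gm20109 lies at chr17:28523109-28523259 (minus), Gm49317 at chr9:41474636-41474786 (plus), Gm807 at chr13:99100446-99100596 (plus) and 2410080I02Rik at chr19:23135024-23135174 (plus).
Gm20109: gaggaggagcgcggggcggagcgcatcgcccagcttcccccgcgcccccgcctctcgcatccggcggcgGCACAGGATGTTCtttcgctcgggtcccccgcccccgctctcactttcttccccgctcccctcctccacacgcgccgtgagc
Gm49317: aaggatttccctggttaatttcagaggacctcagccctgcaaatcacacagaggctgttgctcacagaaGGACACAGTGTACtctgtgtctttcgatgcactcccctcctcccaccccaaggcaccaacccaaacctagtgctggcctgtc
Gm807: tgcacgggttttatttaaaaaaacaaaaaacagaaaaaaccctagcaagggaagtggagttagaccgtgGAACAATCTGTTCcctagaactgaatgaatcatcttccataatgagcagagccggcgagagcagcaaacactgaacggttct
2410080I02Rik: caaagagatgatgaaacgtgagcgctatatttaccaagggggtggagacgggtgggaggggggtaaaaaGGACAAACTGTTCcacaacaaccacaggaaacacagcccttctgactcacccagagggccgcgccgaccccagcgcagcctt

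In the Gm20109 window the motif lay -36 bp from the 5′ end and 3 bp from the upstream GR-con 1 summit, while the −log10 p tested for this window came from the summit 446 to 462 bp downstream in every library but GR-con 2. Gm49317, a lincRNA 313167 bp from Ubash3b, had its motif at -144 bp and 55 bp from a GR-con 1 summit. Its −log10 p was 416, 422 and 415 in GR-con and 334, 282 and 311 in GR-KO, without overlap (score difference -0.463, SE 0.0861, adjusted p = 0.0844, limma). Gm807, 84117 bp from Zfp366, had the motif at -185 bp. Its −log10 p was 495, 425 and 321 in GR-con and 230, 255 and 271 in GR-KO (adjusted p = 0.224, limma), while its folds overlapped, at 17.6, 16.4 and 15.4 against 16.6, 16.7 and 18.3. 2410080I02Rik, 6326 bp from the glucocorticoid-induced transcription factor gene Klf9, had the motif 199 bp downstream. Its −log10 p was 131, 154 and 151 against 103, 95.6 and 109 (adjusted p = 0.404, limma), and its folds of 4.87, 5.26 and 5.47 overlapped with 5.36, 5.11 and 5.48. None of these last 3 passed the test over all windows.

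**Figure D4:**
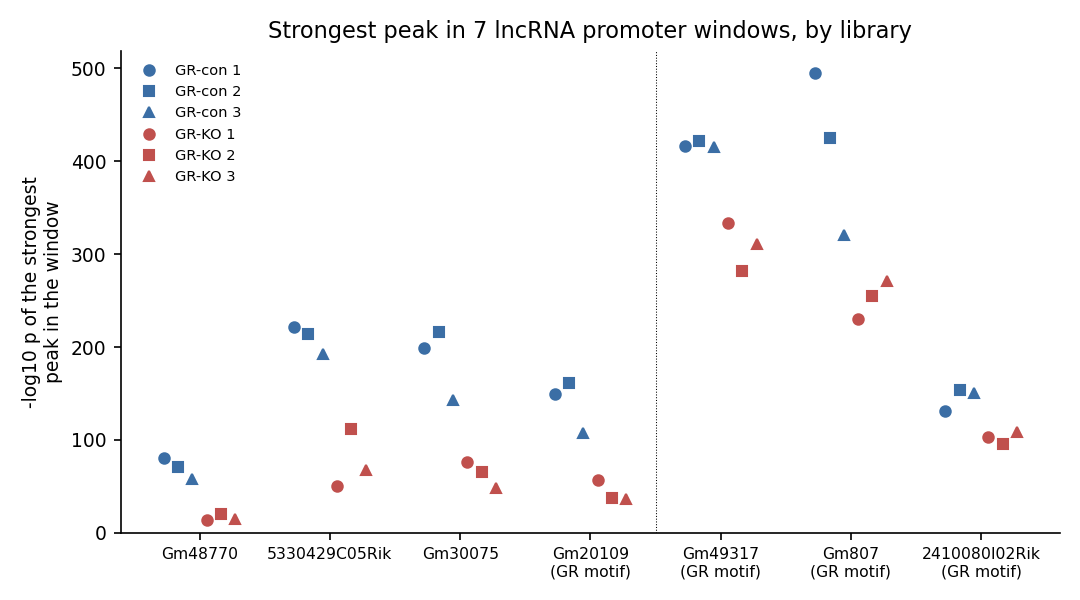
−log10 p of the strongest peak with its summit in the window (y axis) for 7 lncRNA promoter windows (x axis), 1 point per library; the 4 left of the dotted line passed adjusted p under 0.05 (limma) and the 3 right of it did not. In each window all 3 red GR-KO points lie below all 3 blue GR-con points.

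**Figure D5:**
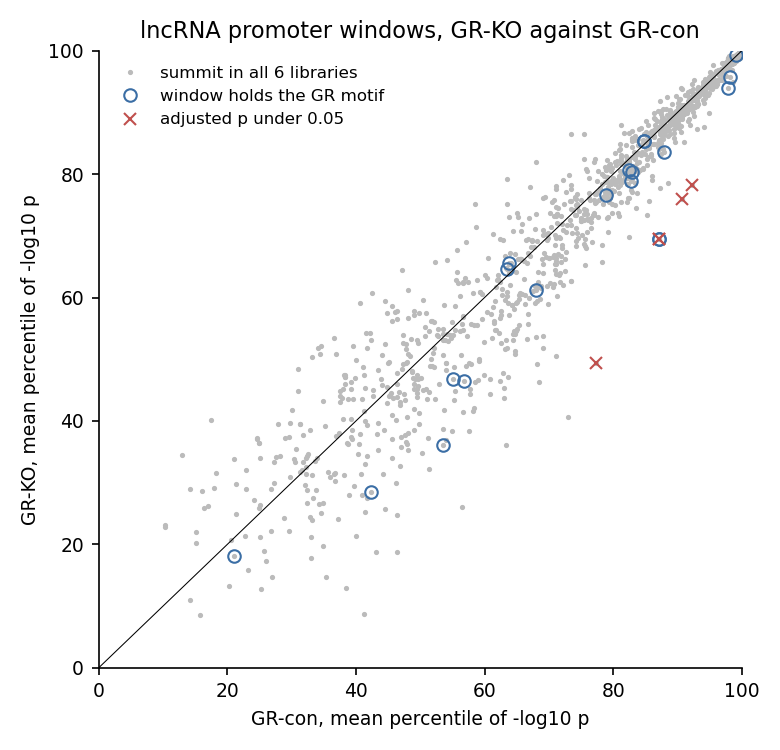
Mean percentile of −log10 p in GR-KO (y axis) against GR-con (x axis) for the 1159 member windows with a summit in all 6 libraries (grey), with the 20 that hold the GR motif circled and the 5 called windows crossed (2 of them coincide). Most windows lie along the line of equal values, more widely spread at low percentiles, and the crosses lie below it.

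No member window passed the test in the other direction. The smallest p belonged to Gm20471, antisense in an intron of the homeobox gene Prrx1, with a −log10 p of 72.1, 60.2 and 54.8 in GR-con and 110, 156 and 119 in GR-KO (score difference 0.299, SE 0.0545, adjusted p = 0.0785, limma). Next came Gm36120, with 23.6, 34.7 and 41.2 against 86.5, 91.0 and 56.9, and Gm45490, with 49.3, 41.1 and 33.2 against 103, 69.4 and 110 (adjusted p = 0.113 and 0.114, limma). Gm33050, antisense in an intron of Fras1, had 77.8, 60.4 and 36.3 against 153, 117 and 114 (adjusted p = 0.131, limma). 9630002D21Rik, also among the 5 of smallest p, had a summit in GR-KO alone and entered the test only through that group, so its p is not given. Wherever both groups had a peak in these windows, all GR-KO values lay above all GR-con values. By rank of fold at sites, the first for a higher value was Gm41307, with folds of 4.51, 3.60 and 6.74 in GR-KO and, in GR-con, no peak covering over 200 bp of the site, though GR-con 3 had a peak of 150 bp with a fold of 3.21. This site entered the test only through GR-KO, so its p is not given. It was followed by Gm48970 near Spry2, with 9.75, 9.22 and 7.58 against 13.1, 12.6 and 12.5 (adjusted p = 0.107, limma). BC055402 (7.01, 6.97 and 6.41 against 10.5, 10.1 and 9.1), 1700023G09Rik (4.93, 5.46 and 4.88 against 7.39, 7.43 and 8.6) and Gm48558 near Trib2 (12.3, 12 and 10.6 against 14.5, 14.1 and 14.5) followed, each without overlap between groups (adjusted p = 0.127 to 0.158, limma).

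A few windows had peaks in 1 condition only. Of the 8024 members, 15 (0.187%) had a peak in every GR-con and no GR-KO library, beside 0.0938% of all 55413 gene windows, and 5 (0.0623%) had the reverse, beside 0.0451%. With any 1 library left out, the first count was 21 to 32 (32 without GR-con 3) and the second 10 to 17 (17 without GR-KO 2). The share over all gene windows is not given for these counts. Of the 15, 12 also had summits inside the window in GR-con alone, and 10 had no GR-KO peak within 1000 bp of the 5′ end. All 5 GR-KO windows kept both properties. Most of these peaks were weak. The highest mean −log10 p among the 15 belonged to 4930434O05Rik, where the same peak, with its summit at -699 to -687 bp, was present in all 6 libraries with folds of 11.3, 11.9 and 14.9 in GR-con and 9.57, 12.5 and 9.35 in GR-KO, and only the wider GR-con intervals reached the window.

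Among windows without any GR-KO peak nearby, 4933404I11Rik had a −log10 p of 26.4, 6.14 and 7.87 in GR-con, Gm43782 (316726 bp from Med13l) 10.2, 5.58 and 13, and Gm45092, whose window holds the GR motif, 12.7, 7.68 and 6.81. Of the others with the highest values, Gm3985 near Nrg1, 4930471G03Rik in an intron of Nrg2 and Gm44718 near Otud7a each had a GR-KO peak within 1000 bp. The GR-KO windows were 9630002D21Rik, with 7.79, 8.21 and 21.4, Gm26724 in an intron of Lemd2, with 6.25, 8.46 and 10.2, 1700071M16Rik in an intron of Pla2g7, Gm43791 in an exon of Rgs12, and AC091309.5. At windows this weak a missing peak says only that the caller's threshold was not met, since the depth behind each list is unknown.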

How the data were processed

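ATAC-seq was measured in 3 GR-con and 3 GR-KO libraries, 1 peak list each. The authors ran the ENCODE ATAC-seq pipeline with multimapping switched off and a peak p threshold of 0.01, and called peaks per library (mm10 in the submitters' notes; no peak of 1116429 ended beyond its GRCm38 chromosome). As deposited, each list gives a capped score, a fold enrichment (a ratio over local background), and −log10 values for p and for q. The authors deposited no counts in these lists, so depth is unknown, the study's count-based test was not run, and no interval is given. The lists hold 179462 to 198929 peaks.

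Members and lists were chosen with earlier results of these data known. Consensus sites reached 200 bp to each side of a summit, a peak had to cover more than 200 bp, and sites in at least 2 libraries were kept. Normal scores of within-library ranks were fitted across all sites, or all gene windows, with limma 3.58.1 (R 4.3.3; variance trend, no block, Benjamini-Hochberg). Shares were compared by exact permutation (Python 3.11.15). Named members are all that were called, the 5 sites and 5 windows of smallest p in each direction, the 10 of highest mean fold percentile, the gene lists, and up to 5 one-condition windows in each direction by mean −log10 p. The motif windows named individually, Gm43782 and Gm45092 were chosen after their values were seen. Of the 8024 member windows, 295 overlap another's. Alternatives covered thresholds, window sizes, rankings, list lengths and each library left out.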

Additional observations from a re-analysis of the deposited data

How the results depend on the processing

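The difference in open share between members and coding windows (-42.2 to -38.4 points) and between CpG-rich and CpG-poor members (52.5 to 60.2 points) kept direction and threshold under 6 and 7 alternatives (exact paired permutation test). Leaving out each library in turn gave -41.0 to -40.9 and 56.2 to 56.6 points with p = 0.0625, the smallest that exact permutation of 5 pairs can give. The GR-KO minus GR-con share ran from -0.681 to -0.216 points under 12 alternatives. The count of windows open in GR-con alone was 10 to 20 under other settings and 21 to 32 with a library left out. Open in GR-KO alone were 12 windows at 1000 bp to each side, and 10 to 17 with a library left out. Fewer libraries have to be met in the counts with a library left out. No share over all gene windows is given beside any of these alternative counts.

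Site calls were few and moved with the settings. No share over all sites or windows is given at these settings, so the counts show only how calls moved. Lower in GR-KO were 4 sites ranked by −log10 p, 1 with an overlap of at least 1 bp, 0 by summit inside the site, 1 with equal list lengths, 6 without the variance trend (and 1 higher), 1 at adjusted p under 0.01, and, for windows with the summit inside, 5 by −log10 p and 0 by fold. With a library left out, 0 to 4 sites were lower and 0 to 2 higher. These counts take sites centred in a window. With equal list lengths and without GR-con 3 the Gm13869 site was centred 520 bp from the 5′ end and left the count, while it passed the threshold itself (adjusted p = 0.00129 and 0.0118, limma). Lower windows by −log10 p numbered 9 (and 2 higher) at 1000 bp to each side, 0 at adjusted p under 0.01, and 0 to 8 lower and 0 to 1 higher with a library left out: 0 without GR-con 1, 1 without GR-con 2, 8 without GR-con 3, and 3, 3 and 2 without GR-KO 1, 2 and 3. With a library left out, the 5 called windows kept a difference below 0, with adjusted p (limma) of 0.0188 to 0.0955 for Gm48770, 0.00638 to 0.114 for 5330429C05Rik, 0.0143 to 0.137 for Gm30075 and 0.023 to 0.144 for Gm20109. The Gm13869 site reversed, to 0.0606, when its peak was chosen by summit.

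Same-numbered GR-con and GR-KO libraries did not deviate together (r = 0.0508, -0.0197 and 0.0303), so the numbers were not taken as pairs. With the replicate block 0 sites and 1 window (Gm30075) were lower and 0 higher. Depth is not known from peak lists, which limits what weak or absent peaks show.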
